A study of Arabidopsis thaliana with 48 samples.

Results

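The genes described here are the nuclear genes for the light-harvesting antenna and for the nuclear-encoded subunits of photosystems I and II of Arabidopsis thaliana, 41 of the 32833 genes listed. They were listed by identifier, with earlier results of these data known. They comprised 6 LHCA genes, 9 genes of the major antenna (LHCB1 to LHCB3) and 5 of the minor antenna (LHCB4 to LHCB6). The others were 12 photosystem I subunit genes and 9 photosystem II subunit genes. Of the 41 genes, 40 reached the minimum level for testing, among 19556 genes tested. The remaining one, LHCB1.5, was listed at 0 in every library. Leaf RNA was sequenced from the wild type Col and from myb30, labelled a knockout of the transcription factor gene MYB30, with no allele or line named. Plants were 4 weeks old, grown on soil in short days, and local and systemic leaves were sampled at 0, 2, 8 and 30 min of high light stress. A local leaf is usually the one treated and a systemic leaf another leaf of the plant, which the labels do not spell out. The 2 genotypes, 2 leaves and 4 times made 16 groups of 3 libraries, each library a pool stated to come from 20 plants.

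Light-harvesting proteins bind chlorophyll a and b and pass excitation energy to the reaction centres. LHCA proteins form the antenna of photosystem I, LHCB1, LHCB2 and LHCB3 form the mobile and bound trimers of photosystem II, and LHCB4 to LHCB6 sit as monomers between trimer and core. All are made in the cytosol and imported into the chloroplast, and a smaller antenna is a known feature of plants kept in strong light.

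By identifier, the LHCA genes are LHCA1 (AT3G54890), LHCA2 (AT3G61470), LHCA3 (AT1G61520), LHCA4 (AT3G47470), LHCA5 (AT1G45474) and LHCA6 (AT1G19150). The major antenna genes are LHCB1.1 (AT1G29920), LHCB1.2 (AT1G29910), LHCB1.3 (AT1G29930), LHCB1.4 (AT2G34430), LHCB1.5 (AT2G34420), LHCB2.1 (AT2G05100), LHCB2.2 (AT2G05070), LHCB2.3 (AT3G27690) and LHCB3 (AT5G54270); LHCB1.1, LHCB1.2 and LHCB1.3 are neighbours on chromosome 1, LHCB1.4 and LHCB1.5 on chromosome 2, and LHCB2.1 and LHCB2.2 also lie near each other on chromosome 2. The minor antenna genes are LHCB4.1 (AT5G01530), LHCB4.2 (AT3G08940), LHCB4.3 (AT2G40100), LHCB5 (AT4G10340) and LHCB6 (AT1G15820). The photosystem I genes are PSAD1 (AT4G02770), PSAD2 (AT1G03130), PSAE1 (AT4G28750), PSAE2 (AT2G20260), PSAF (AT1G31330), PSAG (AT1G55670), PSAH1 (AT3G16140), PSAH2 (AT1G52230), PSAK (AT1G30380), PSAL (AT4G12800), PSAN (AT5G64040) and PSAO (AT1G08380), whose products dock ferredoxin (PSAD, PSAE) or plastocyanin (PSAF, PSAN) or bind antenna (PSAG, PSAH, PSAK, PSAL, PSAO). The photosystem II genes are PSBO1 (AT5G66570), PSBO2 (AT3G50820), PSBP1 (AT1G06680), PSBQA (AT4G21280), PSBQ-2 (AT4G05180), PSBR (AT1G79040), PSBW (AT2G30570), PSBX (AT2G06520) and PSBY (AT1G67740), of which PSBO, PSBP, PSBQ and PSBR belong to the oxygen-evolving side and PSBW, PSBX and PSBY are small membrane subunits.

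The libraries held 70514715 to 89402096 gene-counted reads, and values below are in kiloreads, 1 kiloread being 1000 reads after division by the library's size factor. Apart from the systemic 0 min libraries, 8 genes separated all 21 Col from all 21 myb30 libraries. By these genes Col systemic 0 min library 3 and myb30 systemic 0 min library 3 were each nearer to the other genotype at 100% of the 8, against at most 12.5% in any other library. Libraries outside systemic 0 min had served to choose the 8 genes, so their low percentages follow from that choice. Only the remaining systemic 0 min libraries, also at most 12.5%, are a free comparison. MYB30 reads themselves did not separate the genotypes: the normalised value lay between 244 and 1039 in Col and between 176 and 818 in myb30 libraries. The wounding and stress gene WRKY40 lay between 33.6 and 60.9 normalised reads in 9 of the 0 min libraries and at 496, 1897 and 3317 in Col systemic library 1, Col local library 3 and myb30 systemic library 3. In 6 Col libraries titled 30 min the time tag reads 0 min, and the titles were used. In bulk leaf RNA, fewer cells of a type and less RNA per cell cannot be told apart, and p-values measure only the spread between these pools.

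Antenna and photosystem transcripts were among the most abundant in the leaf. LHCB1.3, a major antenna gene, had the highest level per length, 1231 kiloreads per kilobase of exon, and ranked 1 by value among all genes. It was followed per length by LHCA4 at 531 and by PSBR, a small photosystem II subunit near the oxygen-evolving complex, at 489 kiloreads per kilobase. Within the other subgroups the highest per length were LHCB5 (CP26) at 411 and PSAL, which docks antenna trimers to photosystem I, at 301 kiloreads per kilobase. The lowest were LHCB4.3 at 0.838, LHCA5 at 13.1 and LHCA6 at 14.4 kiloreads per kilobase, the latter pair known to link photosystem I to the NDH complex. LHCB1.5 lies at chr2:14522524-14523568 on the minus strand (TAIR10.1). AT2G34410 and the antisense gene AT2G08665 together overlap 100% of its exon length, and AT2G08665 was also listed at 0 in all libraries. Overlap with other genes covered 61.4% of the exons of PSAG, 53.3% of PSAH1, 40.6% of LHCB2.3, 34.1% of PSAE1, 24.8% of PSAH2 and 20.4% of LHCB6, and the counting strand is not given in the sources used here, so these values are uncertain. So is the division of reads among the LHCB1 copies, which share between 10.7% and 20.5% of their 50-base stretches with other members, and between LHCB2.1 (23.6%) and LHCB2.2 (29.5%). For LHCA2, 11.4% of these stretches occur again in the genome, though 0% in other members, so its values are uncertain too.

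In local leaves of Col the genes first rose together. After 2 min 19 of 40 had risen and 0 had fallen, while 5.92% of all tested genes rose and 4.75% fell, and the median log2 change of the 40 was 0.21 against -0.00084 for all genes. After 8 min 24 had risen and 0 had fallen, against 13.3% and 12.7% of all genes, with a median of 0.24. Each later time is compared with the same 3 libraries of 0 min. LHCB1.4, a major antenna gene, stood at 127, 153 and 181 kiloreads at 0 min, at 193, 234 and 259.9 after 2 min and at 206, 229 and 240.2 after 8 min. All 6 later libraries were above the 3 of 0 min, and the log2 change was 0.58 ± 0.13 (SE, adjusted p = 0.00459) at 2 min and 0.56 ± 0.13 (SE, adjusted p = 0.00147) at 8 min. LHCA1, an outer photosystem I antenna protein, stood at 541, 504 and 486 kiloreads at 0 min and at 607, 654 and 682 after 2 min, again without overlap, a change of 0.34 ± 0.063 (SE, adjusted p = 0.000812) that was 0.36 ± 0.063 (SE, adjusted p = 6.27e-05) at 8 min. LHCB1.2 changed by 0.33 ± 0.066 (SE, adjusted p = 0.00175) at 2 min, and PSAD2, one of the genes for the ferredoxin-docking subunit, by 0.36 ± 0.079 (SE, adjusted p = 0.000879) at 8 min. The early rise spanned all subgroups: at 8 min it was called for 4 of 6 LHCA, 5 of 8 tested major LHCB, 3 of 5 minor LHCB, 6 of 12 photosystem I and 6 of 9 photosystem II genes. It rested on few libraries: the 2 min count was 5 without Col local 0 min library 3, 8 without library 2 of that group, 9 and 3 without libraries 2 and 3 of Col local 2 min, and 0 when the 2 groups were fitted alone. At 8 min the count was 15 without Col local 0 min library 3 and 2 when the groups were fitted alone.

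**Figure D1:**
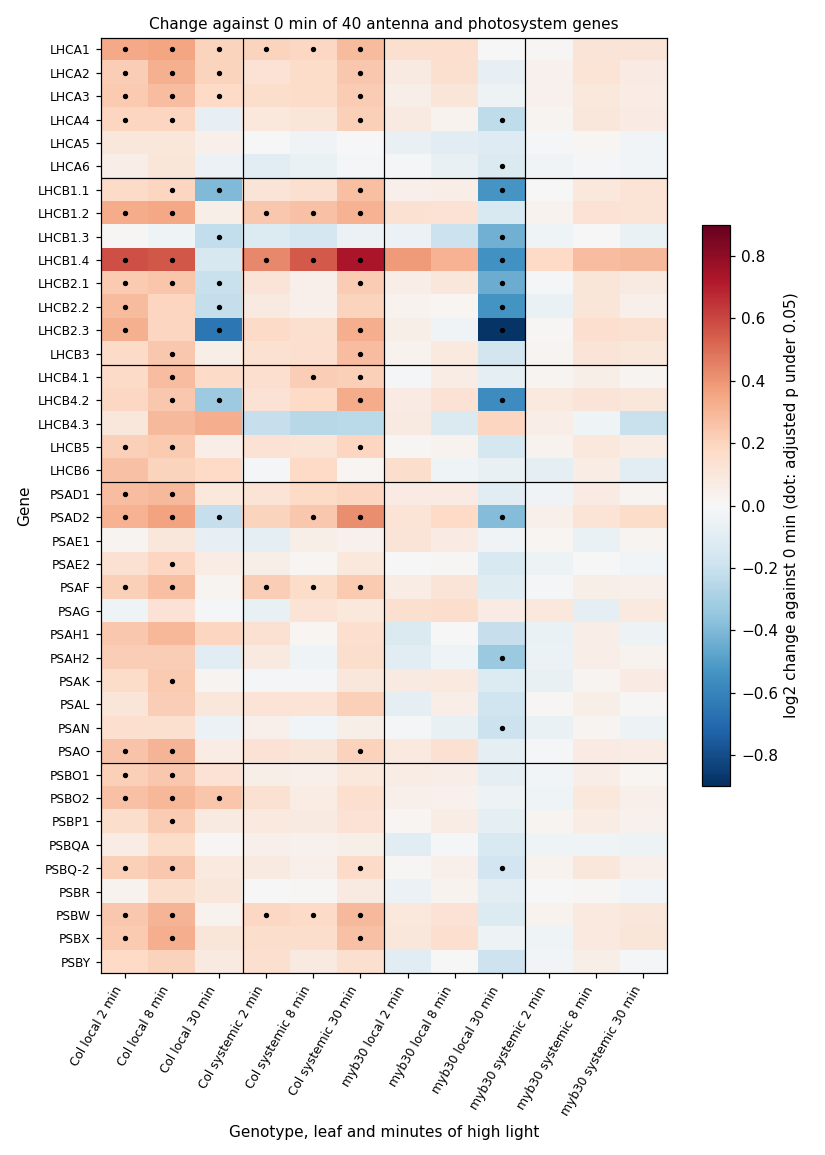
Log2 change against 0 min of the 40 tested genes (rows, by subgroup) in 12 combinations of genotype, leaf and minutes of high light (columns); red is higher, blue lower, and a dot marks an adjusted p under 0.05 (limma). Col columns are mostly red at 2 and 8 min, and in both local 30 min columns the major antenna genes LHCB1.1, LHCB2.1, LHCB2.2 and LHCB2.3 with LHCB4.2 and PSAD2 are blue.

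After 30 min in Col local leaves the set had split. Of the 40 genes 4 had risen and 7 had fallen, while 27.2% of all tested genes rose and 26.5% fell, so the shares of the set were below those of all genes. The 7 that fell were 5 major antenna genes (LHCB1.1, LHCB1.3, LHCB2.1, LHCB2.2 and LHCB2.3), 1 minor antenna gene (LHCB4.2) and PSAD2. The 4 that rose were LHCA1, LHCA2, LHCA3 and PSBO2, a copy of the manganese-stabilising subunit of the oxygen-evolving complex. LHCB2.3 fell furthest, from 126, 119 and 111 kiloreads at 0 min to 75.9, 73.0 and 77.2 after 30 min, with no overlap, a log2 change of -0.65 ± 0.087 (SE, adjusted p = 7.04e-08). At 2 min the same gene had stood at 139, 150.2 and 154 kiloreads. LHCB1.1 went from 565, 549 and 538 to 409, 415 and 430.4 kiloreads, a change of -0.40 ± 0.068 (SE, adjusted p = 6.09e-06), and LHCB4.2, a CP29 gene, from 237, 219.9 and 199 to 167, 172 and 181 kiloreads, a change of -0.33 ± 0.079 (SE, adjusted p = 0.000686). Groups did not overlap for either gene. LHCB1.3, the most abundant, went from 1408, 1581 and 1559 to 1278, 1314 and 1297 kiloreads, a change of -0.22 ± 0.096 (SE, adjusted p = 0.047), also without overlap. The count of 11 was 7 without library 1 or library 2 of Col local 30 min and 3 when the 2 groups were fitted alone.

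Of the major antenna, LHCB1.2, LHCB1.4 and LHCB3 did not pass in that comparison. LHCB1.4, which had led the early rise, was back at 128, 139 and 146 kiloreads, within the range of its 0 min libraries, and LHCB1.2 stood at 519, 529 and 552 kiloreads against 514, 514 and 515 at 0 min. LHCB3, which occurs in trimers bound to the photosystem II core, stood at 546, 495 and 431 kiloreads at 0 min and 508, 478 and 534 at 30 min, a difference of 0.052 ± 0.084. Of the minor antenna, LHCB5 stood at 552, 521 and 559 kiloreads after 30 min and 560.2, 536 and 475 before, with overlap. LHCB4.3 had the most positive difference of all 40, 0.33 ± 0.33, which did not pass, its libraries spreading over 1.70, 0.930 and 0.757 kiloreads at 0 min and 1.91, 0.948 and 1.297 after 30 min. It was highest in the library numbered 1 in all 16 groups, and the later of same-numbered libraries was higher in 3 of 3.

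The promoters of the gene that fell furthest after 30 min and of the gene that rose furthest early are shown for comparison, as the 250 bases before the annotated start in TAIR10.1 (RefSeq), read 5′ to 3′ along the gene. Capitals mark matches on either strand to a G-box (CACGTG), an I-box (GATAAG), the CCA1 site (AAAAATCT) or CCAATC. The LHCB2.3 window (chr3:10255656-10255905, plus strand) holds a G-box starting at -88 and CCAATC at -54, and the LHCB1.4 window (chr2:14524357-14524606, plus strand) a CCA1 site at -18.
LHCB2.3: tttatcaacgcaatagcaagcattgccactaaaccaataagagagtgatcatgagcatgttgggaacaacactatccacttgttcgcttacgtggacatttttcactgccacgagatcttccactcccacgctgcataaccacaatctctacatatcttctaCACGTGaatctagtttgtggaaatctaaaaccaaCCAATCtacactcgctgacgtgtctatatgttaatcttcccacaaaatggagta
LHCB1.4: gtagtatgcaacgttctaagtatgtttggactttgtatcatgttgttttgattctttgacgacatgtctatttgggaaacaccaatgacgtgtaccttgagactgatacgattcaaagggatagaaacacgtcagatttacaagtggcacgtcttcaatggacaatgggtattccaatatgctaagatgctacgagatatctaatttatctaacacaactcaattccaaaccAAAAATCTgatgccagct

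On the size-factor scale few photosystem subunit genes passed in Col local leaves at 30 min, where 27.2% of all tested genes rose and 26.5% fell. Of 12 photosystem I genes 0 had risen and 1, PSAD2, had fallen, from 91.0, 81.2 and 76.8 to 71.00, 69.2 and 75.2 kiloreads, a change of -0.21 ± 0.079 (SE, adjusted p = 0.0262). The most positive difference was that of PSAH1, 49.5, 47.8 and 39.3 kiloreads at 0 min and 52.3, 49.2 and 54.2 at 30 min, 0.19 ± 0.11, which did not pass. PSAL, the most abundant of the 12 per length, stood at 353, 332 and 299 kiloreads at 0 min and 352, 330.1 and 372 after 30 min, with overlap. Of 9 photosystem II genes 1 had risen and 0 had fallen: PSBO2 went from 174, 161 and 152 to 193, 189 and 196 kiloreads, without overlap, a change of 0.25 ± 0.071 (SE, adjusted p = 0.00318). PSBQA, of the oxygen-evolving complex, had the lowest difference of the 9, 0.0093 ± 0.09, at 153, 138 and 118 kiloreads and then 140.0, 128 and 142. PSBR stood at 421, 393 and 350.2 kiloreads and then at 418, 412 and 415, within the earlier range. The LHCA genes were partly higher still. LHCA2 stood at 294, 286 and 279 kiloreads at 0 min and 328, 314 and 349 at 30 min. It was 0.20 ± 0.071 (SE, adjusted p = 0.0155) above 0 min and LHCA1 0.20 ± 0.063 (SE, adjusted p = 0.00705). LHCA4, the most abundant LHCA gene, stood at 598, 620.2 and 630.5 kiloreads against 661, 658 and 623 at 0 min, a difference of -0.071 ± 0.06 that did not pass.

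How these changes read depends on the scale. When libraries were scaled to the same total instead of by size factors, the median of all genes in this comparison moved to -0.33 and that of the 40 to -0.29, 35 of 40 were called lower and 0 higher, and LHCA1 and LHCA2 were among those lower (-0.14 and -0.13), with PSBO2 at -0.087 not passing. On that scale 17 of the 19 genes risen at 2 min and 15 of the 24 risen at 8 min were called higher, and 0 others. On that scale the split among all genes also moved, to 16.7% higher among those called. The share of all tested genes called lower on that scale is not given here, so these counts cannot be set against it. Of all gene-counted reads, which no size factor alters, the 41 genes took 14.2%, 14.4% and 14.6% in the 3 Col local libraries of 0 min. The share was 15.4%, 16.1% and 16.3% after 2 min, between 15.3% and 15.6% after 8 min, and 11.2%, 11.5% and 11.4% after 30 min. The major antenna alone went from a mean of 5.06% ± 0.22 to 3.54% ± 0.072 (SD, n = 3) between 0 and 30 min. In myb30 local leaves the share of the 41 was 14.6% ± 0.25 at 0 min and 11.2% ± 0.43 at 30 min. The systemic libraries held between 14.6% and 17.2% at every time in both genotypes, above both sets of local 30 min libraries.

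**Figure D2:**
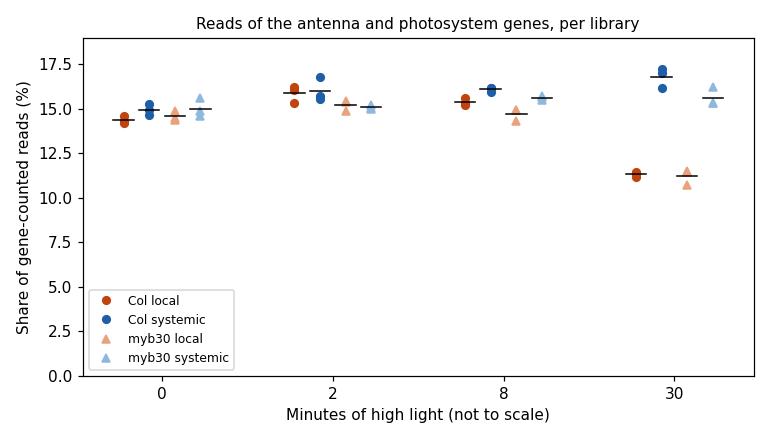
Percent of gene-counted reads in each library that fell on the 41 genes (y axis from 0) against minutes of high light; colour and shape give genotype and leaf, and each black bar is a mean of 3 libraries. The 6 local libraries of 30 min lie between 10.7% and 11.5%, below all others.

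In systemic leaves of Col more members were called higher at 30 min than at 2 or 8 min, times that share the same 0 min libraries. After 2 min 5 of 40 genes had risen and 0 had fallen (6.36% and 5.48% of all genes), and after 8 min 7 and 0 (11.1% and 11.4%). After 30 min 19 had risen and 0 had fallen, against 17.7% and 17.0% of all genes, with a median of 0.19. By subgroup these were 4 of 6 LHCA, 6 of 8 major LHCB, 3 of 5 minor LHCB, 3 of 12 photosystem I and 3 of 9 photosystem II genes. LHCB1.4 stood at 169, 158 and 187 kiloreads at 0 min, 205, 255 and 234 at 2 min, 235, 252 and 263 at 8 min and 254, 306 and 293 at 30 min. Every later library was above those of 0 min, and the log2 change was 0.43 ± 0.13 (SE, adjusted p = 0.0261), 0.55 ± 0.13 (SE, adjusted p = 0.00261) and 0.73 ± 0.13 (SE, adjusted p = 3.39e-05) in turn. PSAD2, which fell in local leaves, went from 93.9, 78.3 and 86.2 to 106, 121 and 117 kiloreads in systemic leaves, a change of 0.42 ± 0.079 (SE, adjusted p = 9.04e-05) after 0.24 ± 0.079 (SE, adjusted p = 0.0261) at 8 min. LHCB4.2 likewise rose, from 239, 218 and 209 to 258, 289.9 and 292 kiloreads, by 0.33 ± 0.079 (SE, adjusted p = 0.00119). LHCB1.2 changed by 0.24 ± 0.066 (SE, adjusted p = 0.0153) at 2 min and 0.27 ± 0.066 (SE, adjusted p = 0.00408) at 8 min, and PSAF, the plastocyanin-docking subunit of photosystem I, by 0.22 ± 0.063 (SE, adjusted p = 0.0201) at 2 min with overlapping libraries. 

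The remaining subgroups had smaller changes in systemic leaves of Col. At 30 min the highest of the LHCA genes was LHCA1, from 541, 553 and 502 to 632, 657 and 657 kiloreads, a change of 0.29 ± 0.063 (SE, adjusted p = 0.000473). The highest of photosystem II was PSBW, a small core subunit, from 201, 182 and 186 to 216, 241 and 238 kiloreads, a change of 0.29 ± 0.056 (SE, adjusted p = 0.000109). Groups did not overlap for LHCA1 or PSBW. Of the 21 members that did not pass, the lowest of each subgroup follow. LHCB4.3 had the most negative difference of all, -0.24 ± 0.33, at 1.92, 0.884 and 1.11 kiloreads at 0 min and 1.304, 0.865 and 1.01 at 30 min, lower in 3 of 3 same-numbered libraries. LHCB1.3 stood at 1734, 1708 and 1685 and then 1596, 1729.7 and 1610.3 kiloreads, and LHCA6 at 17.5, 16.6 and 17.7 and then 15.9, 17.5 and 17.7. PSAE1, a stromal photosystem I subunit, stood at 82.7, 58.7 and 88.8 and 70.8, 78.0 and 85.1 kiloreads, and PSBQA at 158, 139 and 116 and 136, 150.5 and 141. These groups overlapped. Without the 2 libraries whose genotype is in doubt the counts were 1, 2 and 13 at 2, 8 and 30 min, and with the 2 groups fitted alone they were 0, 1 and 3.

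**Figure D3:**
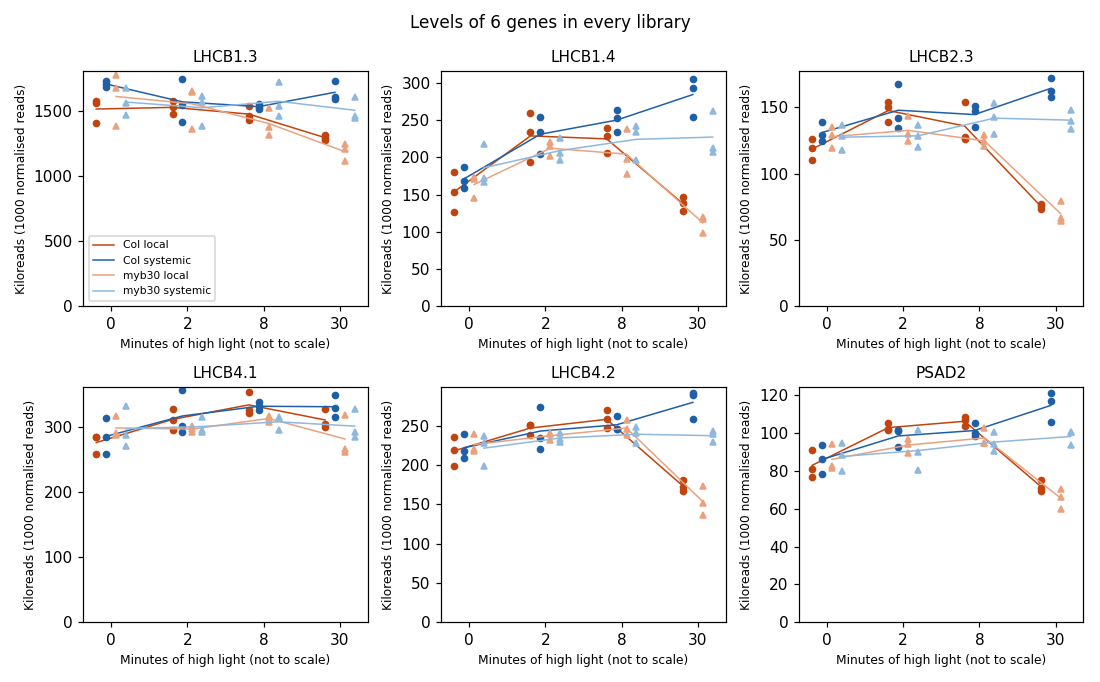
Levels of 6 genes in all 48 libraries, in kiloreads (y axes from 0), against minutes of high light; circles are Col, triangles myb30, orange shades local and blue shades systemic leaves, and lines join the means of 3 libraries. At 30 min local and systemic libraries part in LHCB1.4, LHCB2.3, LHCB4.2 and PSAD2, while those of LHCB4.1 overlap.

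Local and systemic leaves were compared directly at each time. At 0 min no member passed in either genotype (0.0% of all genes in both directions in both), with 2 members in Col and 0 in myb30 at an unadjusted p under 0.05. Of the 19556 tested genes 842 in Col and 1094 in myb30 had such a p at 0 min, and 1382 and 1059 at 2 min. No member passed at 2 min, with 1 in each genotype at an unadjusted p under 0.05. By adjusted p, 0.0716% and 0.0614% of all genes were higher and lower in local leaves of Col and 0.0307% and 0.0102% in myb30. At 8 min PSAO, a photosystem I subunit involved in docking of mobile antenna, was higher in local leaves of Col by 0.18 ± 0.059 (SE, adjusted p = 0.0411), with 5.57% of all genes higher and 4.81% lower. That call was lost without the filter (adjusted p = 0.119), at the same total (0.071, adjusted p = 0.371), with the groups alone (adjusted p = 0.121) and in 5 of 6 omissions of 1 library, by limma. No member passed in myb30 (2.31% and 1.61%), with 1 at an unadjusted p under 0.05, against 2630 of the 19556 tested genes. In the 5 comparisons with 0 called by limma, edgeR and DESeq2 called 0 as well. At 30 min 20 of 40 genes were lower and 0 higher in local leaves of Col, against 25.4% and 25.0% of all genes. In myb30 19 were lower and 0 higher, against 21.3% and 20.6%. The 19 were 95% of the Col list and 100% of the myb30 list, and LHCA1 passed in Col alone; the leaves of each genotype are separate libraries, so these 2 comparisons share no samples. All 8 tested major antenna genes were lower in local leaves in both genotypes, as were LHCB4.2 and LHCB5 of the minor antenna, 6 of 12 photosystem I genes and 2 of 9 photosystem II genes (PSBW and PSBX, small subunits of the core). Without the libraries numbered 2 the Col count was 11, and without those numbered 1 the myb30 count was 12.

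The largest differences were again in LHCB2.3 and LHCB1.4. In Col, LHCB2.3 stood at 75.9, 73.0 and 77.2 kiloreads in local and 158, 172 and 163 in systemic leaves at 30 min, a log2 difference of -1.13 ± 0.087 (SE, adjusted p = 1.37e-13). In myb30 it stood at 64.0, 79.1 and 66.3 and 134, 148 and 139.7 kiloreads, a difference of -1.01 ± 0.087 (SE, adjusted p = 3.45e-12). Neither pair of groups overlapped. LHCB1.4 differed by -1.04 ± 0.13 (SE, adjusted p = 1.48e-08) in Col and by -1.02 ± 0.13 (SE, adjusted p = 3.55e-08) in myb30, and LHCB1.1 by -0.72 ± 0.068 (SE, adjusted p = 2.43e-11) and -0.70 ± 0.068 (SE, adjusted p = 8.75e-11). PSAD2 differed by -0.67 ± 0.079 in Col and -0.58 ± 0.079 in myb30. LHCA6, PSBR and PSBO1 stayed near 0 in the same comparison, with Col differences of -0.055 ± 0.05, 0.078 ± 0.071 and -0.059 ± 0.057, none of which passed. Scaled to the same total, the median of all genes moved to -0.31 in Col and -0.23 in myb30, the medians of the 40 were -0.46 and -0.37, and 39 and 38 of them were called lower. Among all genes called on that scale, 17.23% were higher in local leaves of Col and 18.95% in those of myb30. The share of all tested genes called lower there is not given here.

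**Figure D4:**
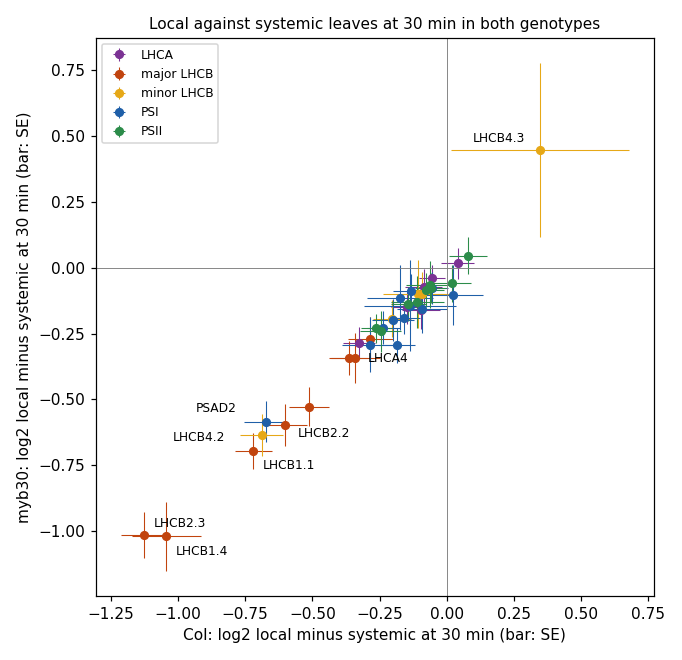
Log2 difference between local and systemic leaves at 30 min in Col (x axis) and myb30 (y axis) for the 40 tested genes, coloured by subgroup, with bars of 1 SE; below 0 is lower in local leaves. LHCB2.3 and LHCB1.4 lie lowest, from -1.13 to -1.01, and LHCB4.3, with the widest bars, is highest at 0.35 in Col and 0.45 in myb30.

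Markers of cell types were compared between 30 and 0 min. Of all tested genes 27.2% rose and 26.5% fell in local leaves of Col, and 22.5% and 21.6% in those of myb30. In systemic leaves of Col it was 17.7% and 17.0%. Of 5 guard cell markers 3 fell in local leaves of Col by 30 min and 4 in myb30, the summed level going from 5.95 to 6.56 kiloreads over the 0 min libraries of Col to 3.39 to 3.74 at 30 min, and from 5.35 to 6.34 to 3.48 to 3.78 in myb30. Of 6 epidermis markers 3 fell in each, with sums of 107 to 121 kiloreads at 0 min and 86.6 to 113 at 30 min in Col, and 103 to 113 and then 86.1 to 107 in myb30. Of 6 mesophyll markers (small Rubisco subunits, carbonic anhydrase and Rubisco activase) 2 rose in Col and 0 in myb30, with sums of 3676 to 4586 and 4398 to 4957 kiloreads in Col and of 4073 to 4302 and 4000 to 4647 kiloreads in myb30. None of these markers was at 0 throughout a group. In systemic leaves of Col 1 of 5 guard cell and 4 of 6 vascular markers fell by 30 min, the vascular sum going from 22.2 to 24.2 at 0 min to 18.5 to 20.6 kiloreads, and 1 vascular marker rose. In local leaves 1 vascular marker rose and 1 fell in Col, with sums of 17.8 to 22.5 and 16.7 to 21.1 kiloreads, and 4 fell in myb30, with sums of 21.6 to 23.8 and 14.2 to 21.3 kiloreads. Of 3 tested markers of dividing tissue 1 rose in local leaves of each genotype and 1 fell in systemic leaves of Col; their sum was below 0.53 kiloreads in each of these groups. The part of cell composition in the antenna differences was not tested.

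The paralogs of LHCB4, PSAD and PSAH did not move alike in local leaves. Within each library the log2 ratio of LHCB4.1 to LHCB4.2, both genes for CP29, was 0.27, 0.38 and 0.38 at 0 min in local leaves of Col and 0.86, 0.80 and 0.86 at 30 min. In myb30 it went from 0.28, 0.52 and 0.40 to 0.96, 0.88 and 0.79, and the groups did not overlap in either genotype. The mean shift over genotypes was 0.49 (exact permutation test with libraries exchanged within genotype, two-sided p = 0.005, the smallest that 400 permutations can give, adjusted p = 0.02 over 12 tests of 6 pairs in 2 leaves). In systemic leaves the shift was -0.099 (exact permutation test, adjusted p = 0.084). The ratio of PSAD1 to PSAD2 rose by 0.30 in local leaves and fell by 0.18 in systemic leaves (exact permutation test, adjusted p = 0.02 for each). In local leaves of Col it was 0.84, 1.07 and 1.17 at 0 min and 1.33, 1.37 and 1.28 at 30 min, and in systemic leaves 1.09, 1.08 and 1.07 and 0.91, 0.88 and 0.77. These ratios do not depend on the scaling of a library. The ratio of PSAH1 to PSAH2, whose products bind near PSAL, rose by 0.21 in local leaves (exact permutation test, adjusted p = 0.03), with the limit that other genes overlap both. In the other 7 tests, on PSAE, PSAH, PSBO and PSBQ pairs, adjusted p by the same exact permutation test lay between 0.12 and 0.98. The paralog tests were added after the values were seen.

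**Figure D5:**
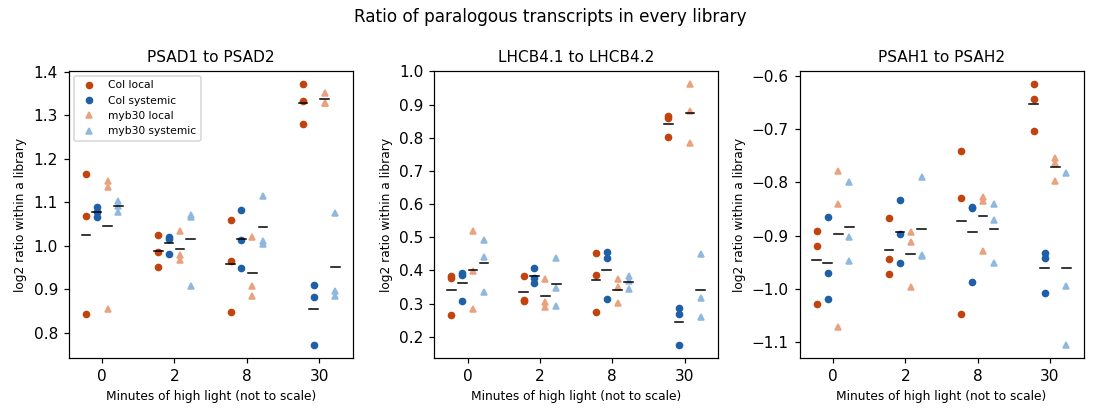
Log2 ratio of 2 paralogs within each library against minutes of high light for PSAD, LHCB4 and PSAH; colours and shapes give genotype and leaf, and black bars are means of 3 libraries. At 30 min the 6 local libraries stand above the systemic ones in the PSAD and LHCB4 panels, at 1.28 to 1.37 and 0.79 to 0.96.

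The promoters of the LHCB4 and PSAD pairs are given so that the copies can be compared, in the same form as above. The windows are chr5:208616-208865, plus strand for LHCB4.1, chr3:2717307-2717556, plus strand for LHCB4.2, chr4:1230165-1230414, minus strand for PSAD1 and chr1:754263-754512, minus strand for PSAD2. LHCB4.1 has CCAATC at -194 and -35 and a G-box at -74, LHCB4.2 has CCAATC at -76 and an I-box at -9, PSAD1 has an I-box at -181, and none of the letters searched is in the PSAD2 window.
LHCB4.1: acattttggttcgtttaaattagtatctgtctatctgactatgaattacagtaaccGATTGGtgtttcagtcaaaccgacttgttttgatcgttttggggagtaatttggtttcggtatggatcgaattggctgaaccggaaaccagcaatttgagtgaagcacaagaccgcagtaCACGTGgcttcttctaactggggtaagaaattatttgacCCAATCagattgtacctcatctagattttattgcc
LHCB4.2: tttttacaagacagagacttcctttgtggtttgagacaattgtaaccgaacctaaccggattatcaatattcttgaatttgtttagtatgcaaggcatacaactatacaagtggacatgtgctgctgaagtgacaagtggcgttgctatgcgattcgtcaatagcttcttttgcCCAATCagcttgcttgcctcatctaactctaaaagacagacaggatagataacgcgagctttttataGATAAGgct
PSAD1: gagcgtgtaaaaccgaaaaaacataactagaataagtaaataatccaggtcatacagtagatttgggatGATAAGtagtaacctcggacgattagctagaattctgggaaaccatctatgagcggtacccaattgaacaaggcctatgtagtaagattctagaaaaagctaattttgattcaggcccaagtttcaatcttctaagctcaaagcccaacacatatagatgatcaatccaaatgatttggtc
PSAD2: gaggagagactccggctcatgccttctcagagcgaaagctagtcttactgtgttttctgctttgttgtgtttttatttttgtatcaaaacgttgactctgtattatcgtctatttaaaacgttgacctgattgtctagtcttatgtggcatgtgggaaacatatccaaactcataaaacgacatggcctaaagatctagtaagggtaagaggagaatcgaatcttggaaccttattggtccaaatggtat
Over the 41 genes, the G-box occurred in 19.5% of the 250-base windows against 6.49% of 27443 promoters, CCAATC in 26.8% against 10.2%, the I-box in 22.0% against 12.3% and the CCA1 site in 12.2% against 6.69%. The evening element (AAAATATCT) occurred in 2.44% against 2.36%, and the heat shock element GAANNTTC in 2.44% against 9.55%. Both strands were searched, and a match is only a run of letters.

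In myb30 the early rise was not called. In local leaves 0 of 40 genes passed at 2 min (1.48% of all genes rose and 0.179% fell) and 0 at 8 min (9.48% and 9.25%), with limma, while 3 and 5 members had an unadjusted p under 0.05 and edgeR and DESeq2 called 0 at 2 min and 2 each at 8 min. Of the 19556 tested genes 2900 and 6108 had such a p. LHCB1.4 stood at 146, 173 and 172 kiloreads at 0 min and 201, 215 and 221 at 2 min, without overlap, a difference of 0.38 ± 0.13 (SE, adjusted p = 0.139). In systemic leaves 0 passed at 2, 8 and 30 min by limma, edgeR and DESeq2. At an unadjusted p under 0.05 there were 0, 1 and 2 members, and 930, 2534 and 4706 of the 19556 tested genes. By adjusted p, 0.0% of all genes rose and 0.0% fell at 2 min, 0.747% and 0.133% at 8 min, and 5.87% and 5.75% at 30 min. After 30 min in local leaves 13 genes had fallen and 0 had risen, against 21.6% and 22.5% of all genes, with a median of -0.13. LHCB2.3 went from 135, 119.7 and 129 to 64.0, 79.1 and 66.3 kiloreads, a change of -0.88 ± 0.087 (SE, adjusted p = 1.26e-10), LHCB4.2 changed by -0.56 ± 0.079 (SE, adjusted p = 3e-07) and LHCB1.4 by -0.55 ± 0.13 (SE, adjusted p = 0.000681). All 7 genes that fell in Col were among the 13, 100% of the Col list and 53.8% of the myb30 list, and the others were LHCA4, LHCA6, LHCB1.4, PSAH2, PSAN and PSBQ-2. The 4 genes that rose in Col did not pass in myb30, where LHCA1 stood at 511, 546 and 519 kiloreads against 549, 523 and 504 at 0 min.

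By limma no member passed between the genotypes, in level or in time course. After 0 min most estimates were lower in myb30, and DESeq2 called a few members in level. In the direct comparisons of myb30 with Col limma and edgeR called 0 of 40 at all 4 times in both leaves, and DESeq2 called 1, 3 and 2 in local leaves at 2, 8 and 30 min and 1 in systemic leaves at 30 min, all lower in myb30. At an unadjusted p under 0.05 (limma) there were 0, 9, 14 and 20 members in local leaves at 0, 2, 8 and 30 min, and 0, 12, 0 and 19 in systemic leaves. Of the 19556 tested genes, 873, 2036, 1670 and 2360 had such a p in local leaves. In systemic leaves it was 1587, 2290, 1901 and 1908. By adjusted p, those of all genes higher and lower in myb30 were 0.0% and 0.0102%, 0.317% and 0.0562%, 0.0% and 0.0153%, and 0.256% and 1.16% in local leaves at these times. In systemic leaves they were 0.0% and 0.0%, 0.0358% and 0.0409%, 0.00511% and 0.00511%, and 0.511% and 0.215%. The estimates were mostly below 0: at 2, 8 and 30 min 35, 40 and 39 of 40 were lower in myb30 in local leaves and 37, 30 and 40 in systemic leaves, with medians from -0.034 to -0.15. The medians of all genes in these comparisons lay between -0.0030 and 0.0058. At 0 min 7 of 40 were lower in local and 26 in systemic leaves. In local leaves at 30 min the median of the 40 was -0.15 on the size-factor scale and -0.013 when libraries were scaled to the same total, where that of all genes moved to 0.13. The smallest adjusted p of any member was 0.111, for PSAK in local leaves at 30 min (-0.21 ± 0.066), whose product binds LHCA proteins at the edge of photosystem I. Tests of the difference in response between genotypes called 0 of 40 at 2, 8 and 30 min in both leaves with limma, and edgeR and DESeq2 also called 0 at 30 min. At 30 min 16 members in local and 5 in systemic leaves had an unadjusted p under 0.05, and at 2 and 8 min 9 and 11 in local and 3 and 0 in systemic leaves. Among the 19556 tested genes these counts were 1785 and 2154 at 30 min. At 2 and 8 min they were 842 and 646 in local and 1886 and 2335 in systemic leaves. By adjusted p, 0.0256% of all genes were higher and 0.251% lower in local leaves at 30 min, and 0.102% and 0.0409% in systemic leaves. At 2 and 8 min it was 0.0% each way.

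Genes that serve the antenna were counted against the shares of all genes at 30 min, which were 27.2% risen and 26.5% fallen in local leaves of Col, 22.5% and 21.6% in those of myb30, and 17.7% and 17.0% in systemic leaves of Col. In systemic leaves of myb30 they were 5.87% and 5.75%. Of 15 chlorophyll synthesis genes 4 rose and 2 fell in local leaves of Col (median 0.071), and 1 rose and 3 fell in myb30. The lowest was CH1, chlorophyllide a oxygenase, which makes chlorophyll b, at -1.16 ± 0.073 (SE, adjusted p = 7.37e-16) in Col and -1.23 ± 0.073 (SE, adjusted p = 1.75e-16) in myb30, and the highest in Col was PORC, a light-dependent protochlorophyllide reductase, at 0.50 ± 0.1 (SE, adjusted p = 6.88e-05). In systemic leaves of Col 6 rose and 0 fell, led by the reductase PORB at 2.35 ± 0.31 (SE, adjusted p = 3.27e-07); in myb30 1 rose and 0 fell, PORA at 0.93 ± 0.3 (SE, adjusted p = 0.0376). Of 9 genes for import, insertion and phosphorylation of antenna proteins 3 were called higher and 2 lower in local leaves of Col. They were led by TAP38, the phosphatase that acts on the mobile antenna, at 0.40 ± 0.085 (SE, adjusted p = 0.000182), and the lowest was AT2G47450 (cpSRP43), which carries antenna proteins through the stroma, at -0.92 ± 0.12 (SE, adjusted p = 8.4e-08). In myb30 0 rose and 1 fell, AT2G47450 at -0.97 ± 0.12 (SE, adjusted p = 3.55e-08), and in systemic leaves 5 rose and 0 fell in Col and 0 and 0 in myb30.

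Of 10 electron carrier and ATP synthase genes 5 were called higher and 1 lower in local leaves of Col, from the plastocyanin gene PETE1 at -0.56 ± 0.064 (SE, adjusted p = 2.77e-09) to the ferredoxin gene FD1 at 1.22 ± 0.14 (SE, adjusted p = 4.42e-09), and 3 rose and 2 fell in myb30. In systemic leaves of Col 2 rose and 1 fell, FD1 at -0.59 ± 0.14 (SE, adjusted p = 0.00142), and in myb30 0 passed. Of 8 further LHC-family and photosystem II genes 4 were called higher and 1 lower in local leaves of Col, 3 and 1 in those of myb30, and 1 rose and 3 fell in systemic leaves of Col. AT1G76570, an LHC-family gene, was 1.15 ± 0.11 (SE, adjusted p = 7.57e-11) in local and -0.60 ± 0.11 (SE, adjusted p = 8.06e-05) in systemic leaves of Col, opposite in direction to LHCB2.3, and the lowest in local leaves was PSBP-2 at -0.93 ± 0.16 (SE, adjusted p = 4.49e-06).

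Antenna genes are known to follow the time of day, and clock genes moved as well. Against the same shares of all genes, at 30 min 7 of 12 clock genes were higher and 1 was lower in local leaves of Col, and 3 were higher and 4 lower in its systemic leaves. In myb30 the counts were 6 and 1 in local and 1 and 3 in systemic leaves, where 5.87% and 5.75% of all genes rose and fell. The morning gene LHY stood at 24000, 34638 and 32343 normalised reads in Col local leaves at 0 min, 16251, 14422 and 8944 at 2 min and 13893, 12922 and 14314 at 30 min, lower at both later times without overlap. CCA1, its close relative, stood at 33059, 42618 and 39959 at 0 min and 51358, 54378 and 56140 at 30 min in local leaves, and at 31477, 38450 and 39311 and 21144, 22310 and 22527 in systemic leaves, so that it was higher in local and lower in systemic leaves. The part of time of day in the changes against 0 min was not tested.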

How the data were processed

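The 48 RNA-seq libraries of leaf pools form 16 groups of 3 by their sample titles. The deposited values, of unit signal, are gene counts that the authors divided by size factors: every value above 0 was a whole multiple of its library's step within 1e-06, which gave 70514715 to 89402096 reads and size factors of 0.776 to 1.17. The submitters' processing notes list TAIR10 as the build, with DESeq2 1.20.0, STAR 2.4.0.1, FastQC 0.11.7 and cutadapt 1.18 as tools. How genes were counted, and whether by strand, is not given in the sources used here. Positions, overlaps and promoters come from RefSeq's TAIR10.1 annotation, where 32548 genes matched by locus tag.

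The test was limma 3.58.1 (trended empirical Bayes; R 4.3.3) on log2(value + 1) for the 19556 genes averaging 10 or more over the libraries, in 1 fit of 16 group means, with Benjamini-Hochberg adjustment over all tested genes within each of 32 comparisons and a threshold of 0.05. A gene rose or fell where it passed. Fold changes are on that log2 scale. Sharing 1 estimate of spread over all groups makes standard errors alike; they were 0.050 at the lowest, 0.073 at the median and 0.33 at the highest among the genes described. Alternatives were edgeR 4.0.16 (quasi-likelihood, TMM) and DESeq2 1.42.0 (Wald) on the recovered reads, a pseudocount of 8, no filter, scaling to the same total, fits of the groups compared alone, a replicate block and omission of libraries. In 5 columns with size factors near 1 a step of 1 read is close to 1, so that the recovery of reads could not be checked against rounding; their values too are whole multiples of 1 step within 1e-06. Python 3.11.15 with pandas 2.3.3, numpy 2.4.6, scipy 1.17.1 and matplotlib 3.10.9 did the rest, and the fits were checked on simulated data. There, with changes set in Col local leaves at 30 min, limma recovered 26% of genes changed 1.25-fold. It recovered 72% at 1.5-fold and 92% at 2-fold. The changed genes, 50 at each fold, were drawn at random from tested genes above a minimum level. These rates are therefore not those of the abundant genes described here, and a count of 0 called does not exclude small changes.

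The genes, the lists beside them and the tests were chosen with earlier results of these data known, and 4 genotype-by-time comparisons at 2 and 8 min, the paralog tests and the omission of doubted libraries were added after the values were seen. Values per library are given, for each subgroup, for the member highest per length and those with the most positive and most negative change at 30 min in Col; beyond them, the 3 highest risen and 3 lowest fallen members of a comparison are named with their statistics. Same-numbered libraries deviated together, with every correlation over 0.1, in 10 of the comparisons checked, and what a number marks is unstated.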

Additional observations from a re-analysis of the deposited data

Results flagged for a closer look

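The response at 30 min differed between local and systemic leaves by a test of the difference itself (limma, local change minus systemic change). In Col this held for 10 of 40 genes, all with a lower local response, where 18.5% of all genes were lower and 18.4% higher. The log2 difference of the 2 responses was -0.98 for LHCB2.3, -0.88 for LHCB1.4, -0.67 for LHCB1.1, -0.66 for LHCB4.2 and -0.62 for PSAD2. It was -0.42 for LHCB2.1, -0.42 for LHCB2.2, -0.28 for LHCA4, -0.26 for LHCB1.2 and -0.25 for PSBW. In myb30 it held for 11 genes, again all lower, where 11.3% of all genes were lower and 11.4% higher. The values were -1.02 for LHCB2.3, -0.84 for LHCB1.4, -0.67 for LHCB4.2, -0.65 for LHCB1.1, -0.58 for LHCB2.2 and -0.56 for PSAD2. They were -0.53 for LHCB2.1, -0.38 for LHCB1.3, -0.30 for LHCA4, -0.26 for LHCB1.2 and -0.22 for PSBW. All 10 genes of Col were among the 11 of myb30, 100% of the first list and 90.9% of the second, and the other was LHCB1.3. For LHCB1.4 the local change in Col did not pass and the difference came with a systemic rise of 0.73, whereas for LHCB2.3 the local fall was -0.65 and the systemic rise 0.33. The systemic 0 min libraries in both comparisons include the pair whose genotype is in doubt; without that pair 9 genes of Col and 8 of myb30 passed.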

How the results depend on the processing

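With edgeR, DESeq2 or a pseudocount of 8, counts of called members stayed within 1.5 times the main count, except that in local leaves of myb30 at 8 min edgeR and DESeq2 each called 2 instead of 0, in the leaf comparison of Col at 8 min they called 2 and 3 instead of 1, and in the comparison of genotypes DESeq2 called 1, 3 and 2 in local leaves at 2, 8 and 30 min and 1 in systemic leaves at 30 min instead of 0. Without the filter on low values the counts were 10 in Col local leaves at 2 min (19 with it), 5 at 30 min (11), 1 (of 5) at 2 min and 2 (of 7) at 8 min in systemic leaves of Col, 0 in the leaf comparison of Col at 8 min, and 7 in the leaf-by-time comparison of myb30 (11). Scaled to the same total they were 15 in Col local leaves at 8 min, 35 at 30 min, 14 in Col systemic leaves at 8 min, 1 and 36 in myb30 local leaves at 8 and 30 min, 39 and 38 in the leaf comparisons of Col and myb30 at 30 min, and 35 and 36 in leaf by time. There PSAO no longer passed in the leaf comparison of Col at 8 min (0.071). PSBO2, LHCA2 and LHCA1, higher in Col local leaves at 30 min, reversed to -0.087, -0.13 and -0.14, by construction of the scaling. The median of all genes on that scale was -0.33 in Col local leaves at 30 min, with 16.7% of the genes called higher. It was -0.31 and -0.23 in the leaf comparisons of Col and myb30 at 30 min. The share of all tested genes called lower is not given here, so these counts cannot be set against it.

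With only the groups compared in the fit, and so fewer degrees of freedom, the counts were 0, 2 and 3 at 2, 8 and 30 min in local leaves of Col, 0, 1 and 3 in its systemic leaves, 8 in myb30 local leaves at 30 min, 0 in the leaf comparison of Col at 8 min, 9 in that of myb30 at 30 min, and 6 and 7 in leaf by time for Col and myb30. With the replicate number as a block, 1 member was called in myb30 local leaves at 2 and at 8 min and in myb30 systemic leaves at 30 min, instead of 0, and 3 in the leaf comparison of Col at 8 min; the block moved no other count by over 1.5 times. Without the 3 outlying 0 min libraries the counts were 6 at 2 min and 15 at 8 min in local and 12 at 8 min in systemic leaves of Col. Without both libraries in doubt they were 1 at 2 min and 2 at 8 min in systemic leaves of Col; the causes were not tested.

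Leaving out 1 library or 1 replicate number gave 0 to 19, 8 to 29 and 4 to 8 called at 2, 8 and 30 min in local leaves of Col, and 0 to 5, 1 to 10 and 5 to 23 in its systemic leaves. In local leaves of myb30 it gave 0 to 2 at 8 min and 8 to 18 at 30 min, in the leaf comparison 0 to 2 in Col at 8 min, at 30 min 11 to 20 in Col and 12 to 23 in myb30, and in leaf by time 6 to 12 and 5 to 15; other counts stayed at 0. Single libraries moved counts by over 1.5 times as follows: libraries 2 and 3 of Col local 0 min (8 and 5 of 19 at 2 min, and for library 3 also 15 of 24 at 8 min), libraries 2 and 3 of Col local 2 min (9 and 3), library 1 or 2 of Col local 30 min (7 each, of 11), libraries 2 and 3 of Col systemic 0 min (2 and 1 of 5 at 2 min, 3 and 2 of 7 at 8 min), libraries 2 and 3 of Col systemic 2 min (0 and 3), libraries 2 and 3 of Col systemic 8 min (2 each), and library 1 of myb30 local 0 min and library 3 of myb30 local 8 min (2 and 1, of 0). The single call of the leaf comparison of Col at 8 min became 0 without library 1 or 2 of the local or 1 or 3 of the systemic group, and 2 without library 3 of the local group. For the 37 changes named with their statistics, 593 alternative values kept the call, 74 lost it and 3 reversed. With the replicate block, LHCB4.3 had a standard error of 0.13 in place of 0.33 and passed in Col local leaves at 30 min (0.33, adjusted p = 0.0348, limma) and in the leaf comparisons at 30 min (0.35 for Col and 0.45 for myb30, with adjusted p of 0.0261 and 0.00589), but not in Col systemic leaves (-0.24, adjusted p = 0.153).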

Other observations

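Some genes followed the library number within groups. LHCB4.3, a CP29 gene of low level in these leaves, was highest in the library numbered 1 in 16 of 16 groups. LHCB1.3 was highest in the library numbered 2 in 14 of 16 groups, LHCA4 in 12, and LHCB1.4 was lowest in the library numbered 1 in 13. No other member was highest in number 1 in more than 9 groups. What the numbers mark is not stated, and the pattern was noticed in these values, so it has no test.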
